A study of Leucoraja erinaceus with 6 samples.

Results

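The synuclein family genes of the little skate (Leucoraja erinacea) were followed in the dorsal root ganglion (DRG) and the spinal cord at embryonic stage 32. Members were chosen by name alone, as rows of the count table called snca, sncb, sncg, sncga, sncgb or sncaip. A total of 3 of 22087 named genes met this rule: sncga (gamma-synuclein), sncb (beta-synuclein) and sncaip (synphilin-1). All 3 passed the filter on low counts, which left 16112 genes tested. No named gene carried the other names of the rule, that of alpha-synuclein (snca) among them, so they were not analysed here.

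The DRG group and the spinal cord group each held 3 bulk RNA-seq libraries, all from untreated wild-type embryos. Every library was a pool of 3 to 4 embryos, and errors and p-values therefore measure how pools vary. Pools 815, 816 and 818 gave replicates 1, 2 and 3 of both tissues. The labels describe both tissues as a mixture of neurons and glia, and the study used the contrast to find expression signatures of either one.

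Synucleins are small soluble proteins of vertebrate neurons that bind membranes rich in acidic lipids and gather at presynaptic terminals. Alpha-synuclein is known for its aggregates in Parkinson's disease, beta-synuclein is an abundant presynaptic protein of the central nervous system, and gamma-synuclein is known in mammals from peripheral sensory and motor neurons. Synphilin-1 is not a synuclein by sequence. It was found in mammals as a partner of alpha-synuclein and is a substrate of the ubiquitin ligases parkin and Siah.

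Both synucleins divided the tissues in opposite directions. Expression of sncga was 5.07-fold higher in DRG, whereas sncb was 30.8-fold lower in DRG, and sncaip was 1.65-fold lower. By the quasi-likelihood test of edgeR with Benjamini-Hochberg adjustment, at a threshold of 0.05, 1 of the 3 was higher in DRG and 2 were lower. Over all genes tested, 55.9% passed, 27.8% higher and 28.1% lower in DRG, so passing the test is common between these tissues. Of the calls 49.7% were higher in DRG, against 15.5% with library sizes alone and 28.0% with mitochondrial genes left out of those sizes. Libraries of the tissues did not overlap for any of the 3 genes, as for 65% of all genes tested.

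Libraries held 24342810 to 28782887 counts. The 13 mitochondrial protein-coding genes took 24.3% to 35.7% of them in DRG and 5.39% to 6.88% in spinal cord. Levels are given as CPM, counts relative to the library total, scaled with TMM factors, which are meant to correct for differences in composition. Each log2 fold change sets DRG over spinal cord. Their median over all genes was -0.04 with TMM and -0.99 with library sizes alone. With mitochondrial genes left out of those sizes it was -0.55, so these genes do not make up the whole shift. Which scaling fits these tissues best was not tested. A level in bulk tissue cannot tell fewer cells of a type from less RNA per cell.

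Gamma-synuclein, the member known from mammalian sensory neurons, was read deeply in both tissues. The counts of sncga were 46955, 40219 and 53857 in DRG replicates 1, 2 and 3, against 19917, 18200 and 16806 in spinal cord replicates 1, 2 and 3. On the TMM scale DRG had 2685, 2358 and 2434 CPM, and the spinal cord had 507, 539 and 430.2 CPM. Every DRG library lay above every spinal cord library, and the highest and lowest DRG libraries differed by a factor of only 1.14.

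DRG libraries averaged 2493 ± 171 CPM of sncga and spinal cord libraries 492 ± 55.8 CPM (± SD over 3 libraries per tissue). The log2 fold change was 2.34 ± 0.17 (SE), with an adjusted p of 2.46e-05 by edgeR's quasi-likelihood test. Of all genes tested, 881 (5.47%) had a larger fitted fold change towards DRG. Spinal cord expression was thus not absent, and stood at 19.7% of the DRG level. The direction did not rest on the scaling, since sncga took 0.180%, 0.155% and 0.203% of all DRG counts, against 0.0692%, 0.0748% and 0.0616% in the cord. The size did, as these raw shares differed 2.62-fold, and 3.55-fold when mitochondrial genes were left out of the totals. Relative to the median of all genes, the log2 fold change of sncga was 2.38 under TMM and under each of 4 other scalings. A scaling shifts all genes nearly alike, so this agreement is built in and is no further support for the size.

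Beta-synuclein, the presynaptic protein of the mammalian brain, showed the largest difference of the family. The counts of sncb were 55, 72 and 49 in DRG replicates 1, 2 and 3, against 4404, 3022 and 3572 in spinal cord. This was 3.15, 4.22 and 2.21 CPM in DRG, against 112, 89.5 and 91.4 CPM in spinal cord. The lowest spinal cord library was therefore far above the highest DRG library. All 3 DRG counts were above the floor of 3 counts, so the gene was detected at a low level in each DRG pool.

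DRG libraries averaged 3.19 ± 1.00 CPM of sncb and spinal cord libraries 97.7 ± 12.5 CPM (± SD over 3 libraries per tissue). The log2 fold change was -4.95 ± 0.25 (SE), with an adjusted p of 5.1e-06 by edgeR's quasi-likelihood test. Raw shares of the counts differed 60.7-fold, and 43.9-fold with mitochondrial genes left out of the totals. Relative to the median of all genes, the log2 fold change was -4.93 to -4.90 under TMM and 4 other scalings, an agreement again built into the measure. A total of 319 genes tested (1.98%) had a lower fitted fold change. The DRG level was 3.27% of that in spinal cord. Spinal cord genes of other kinds were also read in DRG: chata, the acetylcholine synthesis enzyme of motor neurons, stood there at 0.819% of its spinal cord level, the glial glutamate transporter slc1a2b at 0.997%, and the astroglial filament gene gfap at 3.05%. The part of spinal cord material in the DRG counts of sncb was not tested.

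Reads of related genes could also be shared, and the treatment of such reads is not given in the sources used here. In DRG the sncb count was 0.117%, 0.179% and 0.0910% of the sncga count of the same library, against 22.1%, 16.6% and 21.3% in spinal cord. The groups did not overlap, and such a ratio involves no scaling between libraries. The log2 ratio of sncga to sncb counts averaged 9.66 ± 0.49 over the DRG libraries and 2.33 ± 0.22 over the cord libraries (SD), a difference of 7.32 or 160-fold. Neither ratio gives a ratio of transcripts, since counts were not divided by transcript length.

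**Figure D1:**
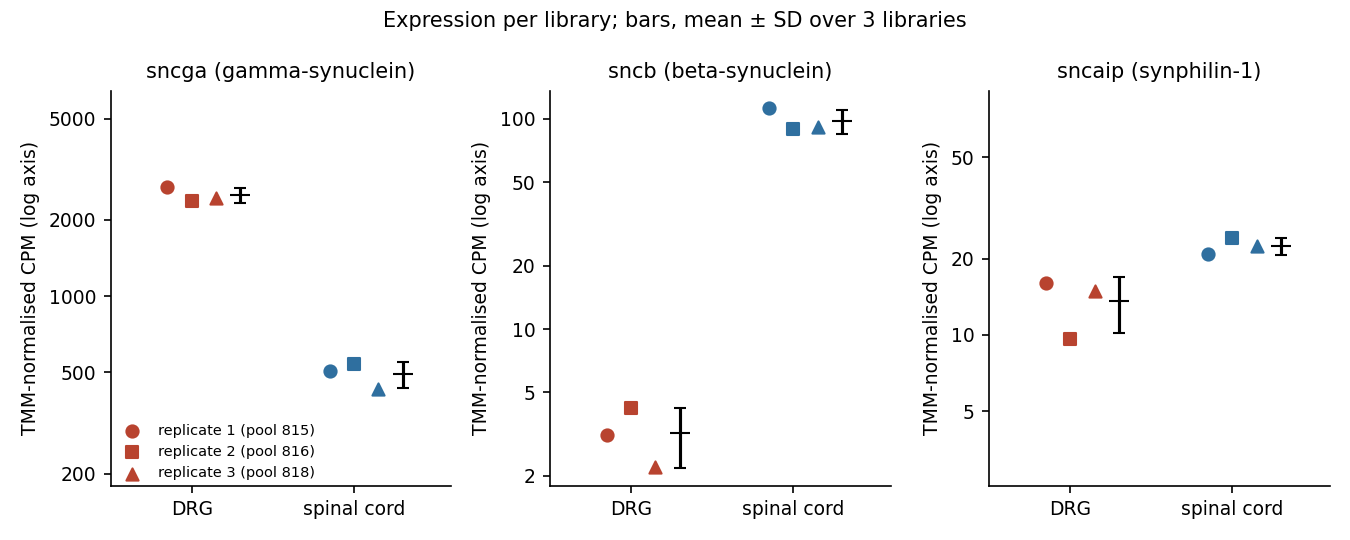
Expression of the 3 synuclein family genes in each library, in TMM-normalised CPM on log axes that cover different ranges; points are libraries, marker shapes are pools, and bars give the mean ± SD over 3 libraries. DRG libraries lie above all spinal cord libraries for sncga (2358 to 2685 CPM against 430.2 to 539 CPM) and below all of them for sncb and sncaip.

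Synphilin-1, the partner protein, differed least. The counts of sncaip were 280, 165 and 331 in DRG replicates 1, 2 and 3, against 815, 817 and 875 in spinal cord. Scaled, DRG had 16.0, 9.67 and 15.0 CPM, against 20.7, 24.2 and 22.4 CPM in the spinal cord. The groups did not overlap, but DRG replicates 1 and 3 came close to the spinal cord range while DRG replicate 2 stood lower.

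DRG libraries averaged 13.5 ± 3.40 CPM of sncaip and spinal cord libraries 22.4 ± 1.72 CPM (± SD over 3 libraries per tissue). The log2 fold change was -0.73 ± 0.21 (SE), with an adjusted p of 0.018 by edgeR's quasi-likelihood test. The call was lost without spinal cord replicate 2 (log2 fold change -0.68, adjusted p = 0.0686) and without spinal cord replicate 3 (-0.73, adjusted p = 0.0538). Its size moved to -1.67 with library sizes alone and to -1.24 with mitochondrial genes left out of them. Relative to the median of all genes it was -0.69 to -0.68 under TMM and 4 other scalings, which is likewise built into the measure.

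The spread between pools was not the same for the 3 genes. The coefficient of variation of CPM was 6.87% in DRG and 11.3% in spinal cord for sncga. It was 31.4% in DRG and 12.8% in spinal cord for sncb, and 25.1% in DRG and 7.67% in spinal cord for sncaip. For sncb in DRG, counting error alone was wide: the 95% Wilson intervals of the unscaled CPM were 1.62 to 2.74, 2.2 to 3.49 and 1.40 to 2.44 in replicates 1, 2 and 3, and they overlapped. For sncaip in DRG the interval of replicate 2 (5.46 to 7.40) lay below those of replicate 1 (9.55 to 12.1) and replicate 3 (11.2 to 13.9). Such intervals cover counting error only, as no molecular identifiers are named in the labels and PCR reads are then not independent molecules.

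DRG replicate 2 was also the highest DRG library for some markers of other cells. The summed level of 3 tested leukocyte genes was 15.4, 73.6 and 16.1 CPM in DRG replicates 1, 2 and 3, that of 11 glial genes 8489, 14318 and 7948 CPM, and that of 6 connective tissue genes 2566, 3724 and 1543 CPM. The leukocyte sum was mostly that of 1 gene, as ptprc alone had 11.7, 67.0 and 13.5 CPM in DRG replicates 1, 2 and 3. Erythroid sums (115, 81.2 and 58.3 CPM) and endothelial sums (71.3, 64.0 and 42.6 CPM) were instead highest in DRG replicate 1. Leaving out DRG replicate 2 put sncga at 2.37, sncb at -5.20 and sncaip at -0.54 (log2 fold change). The adjusted p values of these fits were 6.17e-05, 1.59e-05 and 0.0189 in edgeR's quasi-likelihood test. All 3 directions and calls were the same as with DRG replicate 2 kept.

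Pairing by pool showed each gene on the same side in every pool. The difference in log2 CPM, DRG minus spinal cord, was 2.41, 2.13 and 2.50 for sncga in pools 815, 816 and 818. For sncb it was -5.12, -4.38 and -5.32, and for sncaip it was -0.37, -1.32 and -0.58. Pool 816 gave the smallest difference for both synucleins and the largest for sncaip.

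**Figure D2:**
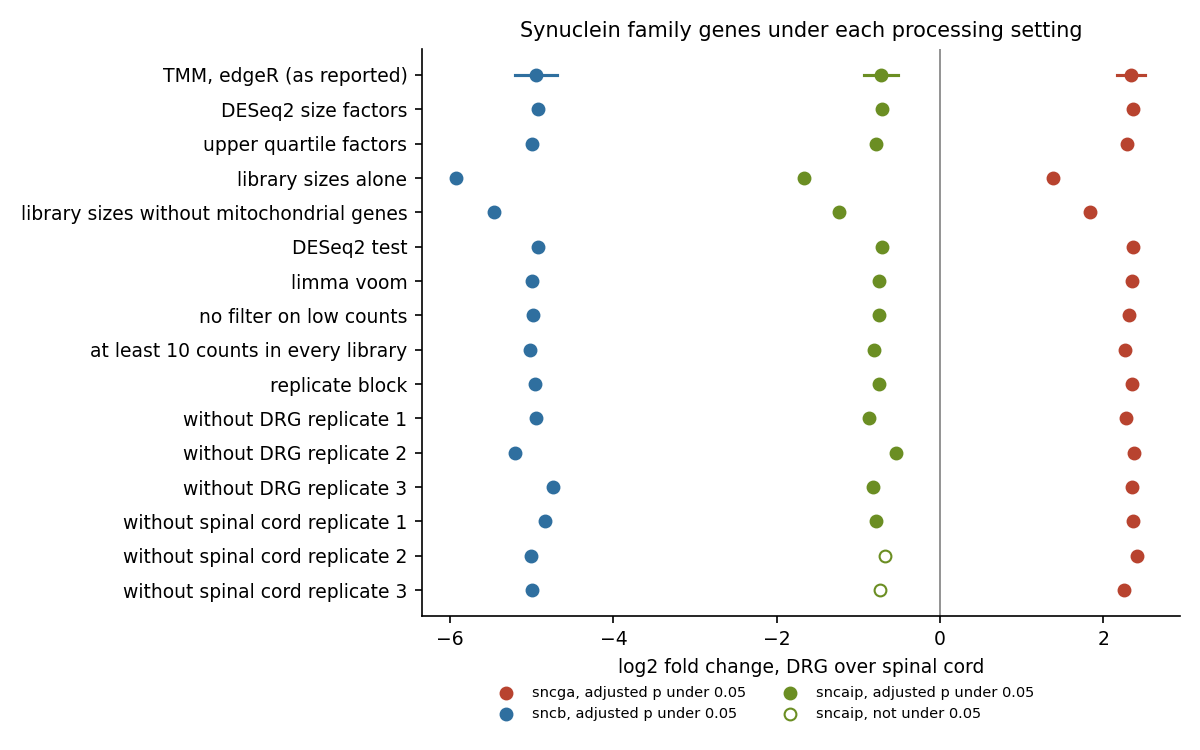
Difference between DRG and spinal cord, as log2 fold change, of the 3 genes under the reported test and 15 other settings; lines at the top give ± SE, filled points have an adjusted p under 0.05 and open points do not. The values of sncga stay between 1.39 and 2.41, those of sncb between -5.92 and -4.74 and those of sncaip between -1.67 and -0.54, with 2 open points for sncaip.

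Whether the difference followed neurons in general was described by setting each gene against other neuronal transcripts of the same library, which cancels the scaling between libraries. The pan-neuronal list had 12 tested genes. In DRG 4 were higher, among them the neurofilament gene neflb (2.55) and the RNA-binding protein gene elavl4 (0.49). Another 6 were lower, among them syt1a (-3.87) and ncam1a (-2.52). Summed, the list had 21471 to 23212 CPM in DRG, against 6231 to 6527 CPM in spinal cord. Most of the DRG sum came from neflb, stmn2b and uchl1, with means of 13068, 3902 and 3514 CPM in DRG. Their spinal cord means were 2239, 703 and 139 CPM. The median log2 fold change of the list was -0.56, so the sum does not stand for the list as a whole. The list mean thus averages opposite changes, and a level relative to it cannot tell whether sncga departed from neurons in general. The log2 level of sncga above the mean of this list was 3.58, 3.58 and 3.31 in the DRG libraries, against 1.07, 1.15 and 0.88 in the cord libraries. The groups did not overlap, and the difference of 2.46 between the means was close to the log2 fold change itself (two-sided exact permutation p = 0.1, which no split of 3 against 3 libraries can go below; 0.12 after Benjamini-Hochberg adjustment over 6 comparisons).

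Against the 14 tested genes of the sensory neuron list the picture was different. There sncga stood 6.13, 5.86 and 5.86 above the list mean (log2) in the DRG libraries, against 6.28, 6.14 and 5.90 in the cord libraries. These groups overlapped, with means of 5.95 ± 0.15 for DRG and 6.11 ± 0.19 for the cord (SD over 3 libraries; difference -0.16, two-sided exact permutation p = 0.2, also 0.2 after adjustment over the 6). The difference was about as large as the SD of either tissue, and such a p does not show that sncga and the list changed alike. The sensory list itself had 12 of 14 genes higher in DRG (85.7%, beside 27.8% of all genes tested; median log2 fold change 2.75), and 8 of them with library sizes alone. There pou4f2 turned to -0.14, and runx1 (0.64), drgx (0.39) and ntrk2a (0.59) did not pass. The call of pou4f2 was also lost without any 1 library but DRG replicate 2. The list was led by the transcription factor genes pou4f3 (5.07), isl2a (4.27) and runx3 (4.06). At its other end avil (-0.26) and eya1 (0.76) did not pass, with means of 1.42 and 1.85 CPM in DRG. The list mean thus averages very unequal changes, and a level relative to it cannot tell which of these genes sncga followed.

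Relative to the pan-neuronal list, sncb stood at -6.13 ± 0.61 for DRG and -1.30 ± 0.17 for the cord, and sncaip at -4.06 ± 0.27 for DRG and -3.41 ± 0.11 for the cord (log2, SD over 3 libraries; two-sided exact permutation p = 0.1 for each gene). Relative to the sensory list they differed by -7.44 and -3.26 between DRG and spinal cord (exact permutation p = 0.1 for each). In these 4 comparisons the libraries of the tissues did not overlap.

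**Figure D3:**
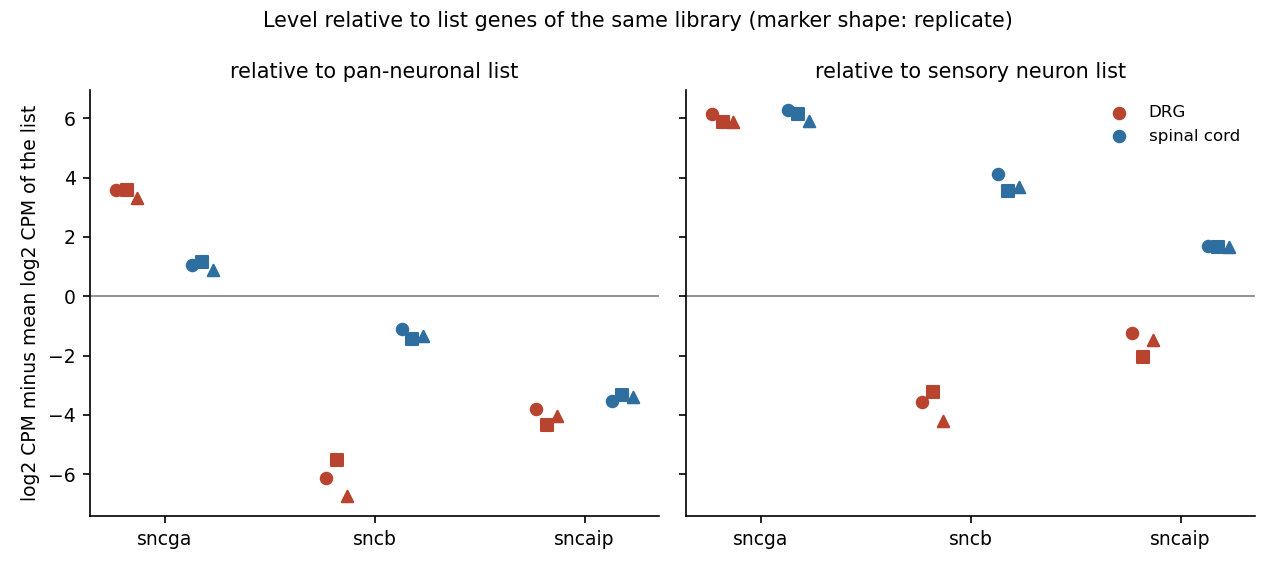
Log2 CPM of each gene minus the mean log2 CPM of the pan-neuronal list (left) and of the sensory neuron list (right), with 1 point per library, DRG in red to the left of spinal cord in blue. For sncga the tissues separate against the pan-neuronal list (3.31 to 3.58 in DRG, 0.88 to 1.15 in spinal cord) and overlap against the sensory list (5.86 to 6.13 in DRG, 5.90 to 6.28 in spinal cord).

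Synucleins act at synaptic vesicles, and alpha-synuclein is known to bind the vesicle SNARE protein VAMP2. Of 6 tested genes of the release machinery list (20 symbols), 1 was higher and 3 were lower in DRG, which is 66.7% called beside 55.9% of all genes. With library sizes alone 0 were higher and 5 lower, and without mitochondrial genes 0 were higher and 4 lower. The VAMP2 gene vamp2 had 10.4, 12.4 and 13.0 CPM in DRG, against 77.2, 87.8 and 93.7 CPM in spinal cord (log2 fold change -2.85 ± 0.16 SE, adjusted p = 6.67e-06 in edgeR's quasi-likelihood test). The calcium sensor gene syt1a had 2.97, 2.64 and 3.66 CPM in DRG, against 46.8, 47.4 and 42.5 CPM in spinal cord (-3.87 ± 0.18 SE, adjusted p = 3.14e-06). The groups of both genes were well apart, on the same side as sncb and opposite to sncga.

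The third gene lower in DRG was syn2b (-0.77), a synapsin, a family of proteins that tether synaptic vesicles. The endosomal GTPase gene rab5aa was higher (0.57), but turned to -0.38 with library sizes alone. The vesicle GTPase genes rab3ab and rab3c had log2 fold changes of -0.07 and -0.08 and did not pass (adjusted p = 0.851 and 0.709). Both passed as lower with library sizes alone (-0.97 and -1.02), and rab3c also without mitochondrial genes (-0.59). The median of the list was -0.42, against -0.04 for all genes tested.

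Genes linked to the modification or breakdown of alpha-synuclein went both ways. Of 10 tested genes (24 symbols), 5 were higher and 2 lower in DRG, which is 70% called beside 55.9% of all genes, and the median was 0.36. With library sizes alone 1 was higher and 4 were lower, without mitochondrial genes 2 were higher and 4 lower, and with upper quartile factors 5 were higher and 4 lower. The lysosomal proteases ctsla and ctsd, which can cleave alpha-synuclein in mammals, were higher in DRG by 1.99 and 1.35 (log2), but library sizes alone left ctsd uncalled (0.41, adjusted p = 0.107). The kinase genes plk2b, whose product phosphorylates alpha-synuclein in mammals, and dyrk1aa were lower by -1.48 and -0.87.

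The remaining 3 genes higher in DRG were bag5 and stub1, both co-chaperone genes, and csnk2a2b, a casein kinase 2 subunit, at 0.73, 0.68 and 0.53. All 3 turned negative with library sizes alone, at -0.26, -0.27 and -0.42. The call of bag5 also failed under the replicate block (adjusted p = 0.0641) and when any library but DRG replicate 3 was left out (highest adjusted p = 0.118). The gene of the ubiquitin ligase Siah1, of which synphilin-1 is a substrate in mammals, had 10.5 ± 1.95 CPM in DRG, against 14.6 ± 1.22 CPM in the cord (SD). With a log2 fold change of -0.47, siah1 did not pass (adjusted p = 0.0668), but did without DRG replicate 3 (-0.65, adjusted p = 0.016), with upper quartile factors (-0.53), with a filter of 10 counts in every library (-0.55), with library sizes alone (-1.41) and with those sizes less mitochondrial genes (-0.98). The gene of the lysosomal membrane protein LAMP2, lamp2, likewise passed under the same 5 settings, with -1.29 and an adjusted p of 0.00126 for library sizes alone.

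Genes linked to parkinsonism went both ways, with a balance that depended on the scaling. Of 18 tested genes (23 symbols), 5 were higher and 5 lower in DRG, which is 55.6% called beside 55.9% of all genes, and the median was -0.14. With library sizes alone 1 was higher and 12 lower, and without mitochondrial genes 3 were higher and 10 lower. The largest change was that of uchl1, the neuronal ubiquitin hydrolase, with 3533, 3970 and 3038 CPM in DRG, against 140.2, 134 and 142 CPM in spinal cord (log2 fold change 4.66 ± 0.19 SE, adjusted p = 2.53e-06 in edgeR's quasi-likelihood test). Its DRG libraries were all far above those of spinal cord, on the side of sncga.

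Also higher in DRG were park7 (1.22), which encodes the oxidative stress protein DJ-1, and fbxo7 (1.17), a ubiquitin ligase subunit. With library sizes alone neither passed, at 0.26 for park7 and 0.22 for fbxo7 (adjusted p = 0.314 and 0.302). The mitochondrial kinase gene pink1 (0.80) and the lysosomal channel gene tmem175 (0.73) were higher too, but turned to -0.12 and -0.19 with library sizes alone. Lower in DRG were prkn (-1.17), which encodes the ubiquitin ligase parkin, the tau gene maptb (-1.16) and the kinase gene lrrk2 (-1.0), together with gba (-0.98) and dnajc6 (-0.71). With the replicate block prkn no longer passed (adjusted p = 0.0522), nor did it without DRG replicate 1, cord replicate 1 or cord replicate 3 (highest adjusted p = 0.0922). The call of gba was lost without DRG replicate 1, cord replicate 1 or cord replicate 2, that of tmem175 without these or DRG replicate 3, and that of pink1 without cord replicate 1 or 3. Without spinal cord replicate 1 the count of called genes was 6 of the list, with prkn, gba, pink1 and tmem175 among the calls lost.

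**Figure D4:**
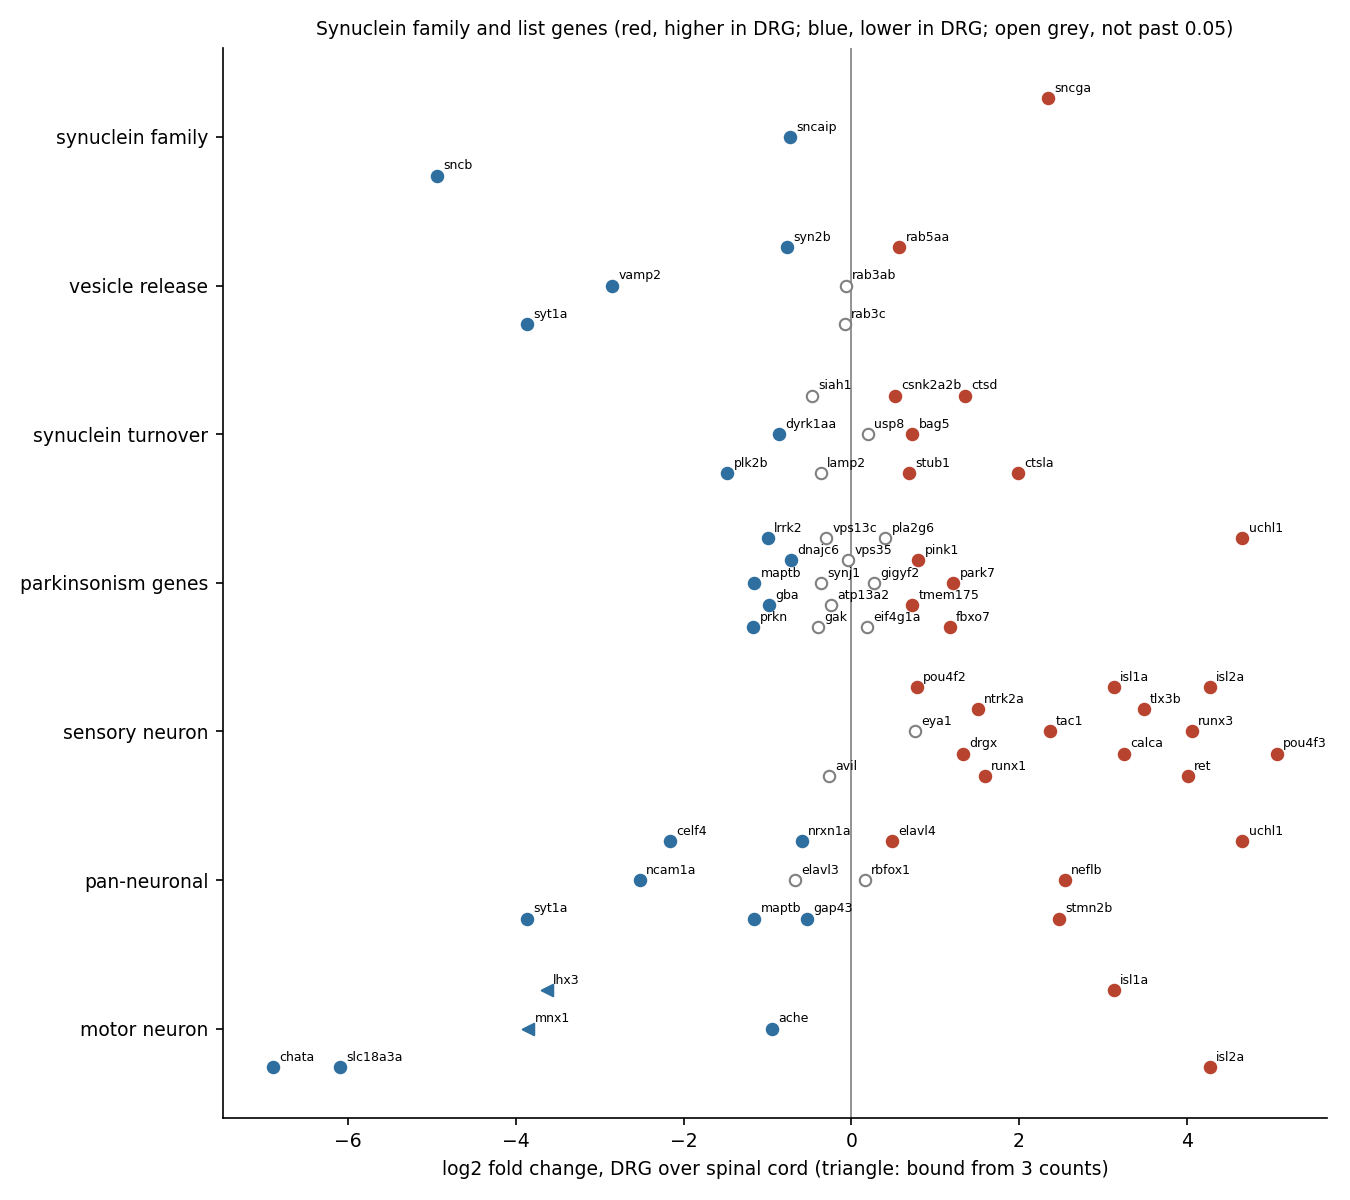
Difference between DRG and spinal cord, as log2 fold change, of the synuclein family and of the tested genes of 6 lists; red points were higher and blue points lower in DRG at an adjusted p under 0.05, open grey points did not pass, and triangles are bounds computed from 3 counts. Members of the family lie at 2.34, -0.73 and -4.95, release machinery genes lie at or below 0.57, and 12 of 14 sensory neuron genes are red.

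Marker lists checked the labels of the tissues, beside 27.8% higher and 28.1% lower in DRG over all genes tested. Of 7 tested motor neuron genes, 5 were lower in DRG (chata, slc18a3a, ache, mnx1 and lhx3), and the median was -6.10, or -3.64 with mnx1 and lhx3, which had at most 3 counts in each DRG library, set to their bounds. The 2 genes higher in DRG were isl1a and isl2a, which sensory neurons also use. Among pan-neuronal genes, 4 were higher and 6 lower in DRG (median -0.56), against 3 and 9 with library sizes alone and 3 and 7 without mitochondrial genes. Those higher were uchl1 (4.66), neflb (2.55), stmn2b (2.47) and elavl4 (0.49, but -0.48 with library sizes alone and -0.03 without mitochondrial genes). Those lower were led by syt1a (-3.87), ncam1a (-2.52) and celf4 (-2.16). The call of elavl4 was lost without DRG replicate 1, cord replicate 2 or cord replicate 3.

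Lists of other cell types describe what else the tissues may have held, again beside 27.8% higher and 28.1% lower over all genes tested. They cover these cells only in part. Named genes were found for 11 of 14 glial, 6 of 14 connective tissue, 2 of 14 erythroid and 3 of 8 leukocyte symbols. For muscle it was 4 of 11, for endothelium 7 of 9 and for catecholamine 4 of 6. Of the tested glial genes, 4 of 11 were higher in DRG (egr2b, pmp22b, s100b and foxd3). Another 6 were lower in DRG (slc1a2b, gfap, plp1a, mpz, sox10 and mbpa), and the median log2 fold change was -1.95. Summed glial levels were 7948 to 14318 CPM in DRG, against 40061 to 48632 CPM in the cord. Most of the cord sum came from mpz and mbpa, with means of 31499 and 8028 CPM in the cord. Their DRG means were 2644 and 2075 CPM, so the sum mainly reflects these genes. All 6 connective tissue genes were higher in DRG, 5 with library sizes alone, with sums of 1543 to 3724 CPM against 126 to 161 CPM in spinal cord. Both tested erythroid genes, rhag and lmo2, were higher in DRG, with sums of 58.3 to 115 CPM against 9.14 to 13.8 CPM in spinal cord. Of 3 leukocyte genes 1 was higher (ptprc) and 1 lower (spi1b), of 2 muscle genes 1 was higher (neb), of 7 endothelial genes 1 was higher (kdr) and 2 lower (tie1 and cldn5a), and of 3 catecholamine genes 1 was lower (slc18a2). Calls of spi1b and tie1 were lost without any 1 library but DRG replicate 2, and those of ptprc and neb without any 1 cord library. With library sizes alone leukocyte calls were 0 higher and 2 lower and endothelial calls 1 higher and 6 lower, and without mitochondrial genes 0 and 1, and 1 and 4. Leukocyte sums were 15.4 to 73.6 CPM in DRG and 12.5 to 14.9 CPM in spinal cord, and muscle sums 12.4 to 40.5 CPM in DRG and 8.50 to 12.9 CPM in spinal cord. Endothelial sums were 42.6 to 71.3 CPM in DRG and 103 to 132 CPM in spinal cord, and catecholamine sums 4.16 to 6.63 CPM in DRG and 7.81 to 16.0 CPM in spinal cord. Most of the endothelial cord sum came from cldn5a, which averaged 64.3 CPM there but only 1.05 CPM in DRG. Most of the DRG sum came from kdr, which averaged 33.9 CPM there but 9.71 CPM in the cord. The endothelial sums thus mainly reflect these genes, and cannot tell which tissue held more endothelium. No tested gene of these lists was at 0 in every library of a tissue, and their part in the results on synuclein genes was not tested.

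The genes with the profile most like a member were found by the Euclidean distance between log2 CPM values, centred on each gene's mean, over the 6 libraries. Candidates were the 6469 genes that carry a symbol and reach a mean of 10 CPM in DRG or cord. For sncga the 8 nearest genes, from 0.20 to 0.33 log2 units away, were cdnf, pcmt, nploc4, uck2a, stmn2b, osbpl5, iscu and clu. They encode, in this order, a neurotrophic factor of the endoplasmic reticulum, a protein repair methyltransferase, a cofactor of the p97 ATPase, a uridine-cytidine kinase, a microtubule regulator of growing axons, a lipid transfer protein, an iron-sulphur cluster scaffold and an extracellular chaperone. Being chosen for likeness, they had log2 fold changes in a narrow range, of 2.2 to 2.47.

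Among these, stmn2b is also a gene of the pan-neuronal list. It had 3888, 4152 and 3665 CPM in DRG, against 756, 702 and 651 CPM in spinal cord. These groups did not overlap, but the gene was chosen for likeness to sncga, so this is no further support.

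The same measure was applied to the other members after their values were seen. Nearest to sncb, at 0.38 to 0.69 log2 units, were neto1l, grin3a, bcl11aa, lmo3, kcnd2, slc6a11b, susd5 and col4a5, with log2 fold changes of -5.46 to -4.82. Of these, grin3a encodes an NMDA receptor subunit, kcnd2 a potassium channel and slc6a11b a GABA transporter. Nearest to sncaip, at 0.14 to 0.24 log2 units, were tmem39b, rilpl1, syn2b, hmgcll1, epha7, rab30, znf318 and ext2, with log2 fold changes of -0.86 to -0.57. These 8 genes, chosen for likeness, were like sncaip lowest in DRG replicate 2. The synapsin gene syn2b, of the release machinery list, was thus also among the genes nearest to synphilin-1, at 44.5 ± 8.74 CPM in DRG, against 75.8 ± 5.50 CPM in the cord (SD).

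**Figure D5:**
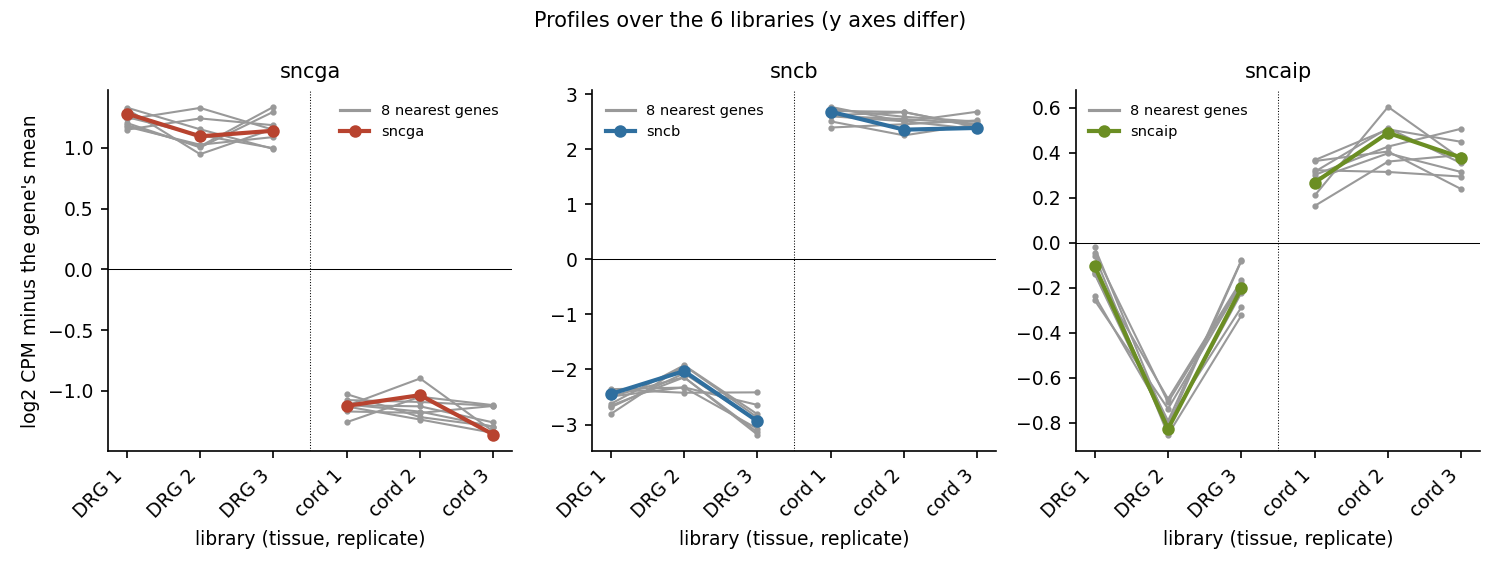
Log2 CPM minus the gene's own mean in each library for the 3 members (coloured) and the 8 genes nearest to each (grey), with the DRG libraries left of the spinal cord libraries and y axes that differ between panels. Libraries of one tissue are joined to trace a gene and have no order. The grey lines follow sncga within 0.33 log2 units of distance, and both sncaip and its nearest genes dip in DRG replicate 2.

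Genes beside each member were taken, by a rule chosen after values were seen, from RefSeq's gene order on assembly Leri_hhj_1. The nearest 3 on each side made 18 neighbours, of which 12 were tested, 2 of them higher and 4 lower in DRG. Of all genes tested 27.8% were higher and 28.1% lower, so these counts are no result about the neighbours. On one side of sncga lie mmrn2a, bmpr1aa and ldb3a, whose human counterparts also lie near SNCG. Expression of mmrn2a, an endothelial matrix glycoprotein gene, was 5.46 ± 2.21 CPM in DRG, against 12.8 ± 1.94 CPM in the cord (SD over 3 libraries per tissue). Its log2 fold change of -1.23 ± 0.32 (SE; adjusted p = 0.0117 by edgeR's quasi-likelihood test) was opposite to that of sncga.

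The BMP receptor gene bmpr1aa had a log2 fold change of 0.36 and did not pass (adjusted p = 0.0682). It passed as higher with the DESeq2 test (0.39) and without DRG replicate 2 (0.43), and as lower with library sizes alone (-0.58). Neither ldb3a (-1.49) nor shld2 (-0.26), on the other side of sncga, passed (adjusted p = 0.119 and 0.485). However, ldb3a passed without DRG replicate 2 (-2.60, adjusted p = 0.0169), with library sizes alone (-2.48), without mitochondrial genes (-2.01) and with the replicate block (-1.86), and shld2 passed with library sizes alone (-1.19). The unnamed gene LOC129713036, also on that side, was higher in DRG (0.49, but -0.45 with library sizes alone and -0.02 without mitochondrial genes), a call lost without any 1 cord library.

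Near sncb, the netrin receptor gene unc5a was lower in DRG, at 4.89 ± 0.60 CPM in DRG, against 14.7 ± 0.54 CPM in the cord (SD over 3 libraries per tissue). Its log2 fold change was -1.58 ± 0.19 (SE; adjusted p = 0.000252 by edgeR's quasi-likelihood test), and that of LOC129701706 on the same side was -0.84. Near sncaip, the sorting nexin gene snx2 was higher in DRG (0.66, but -0.31 with library sizes alone) and srfbp1 did not pass (adjusted p = 0.557). The gene next to sncaip, LOC129695808, had at most 3 counts in each DRG library and was at least 8.30-fold lower in DRG.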

How the data were processed

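Whole-number raw counts per gene were deposited for 6 libraries, made with polyA selection and a stranded protocol per the labels' protocols. Per the submitters' processing notes, Trimmomatic, HISAT2 2.2.0, SAMtools, featureCounts and edgeR 4.4 were used, with no role or setting given; the genome build, annotation and strand setting are not given in the sources used here, so no coordinates are printed. Of 22111 rows, 24 name no gene (1.96% ± 0.07 of counts in DRG, 1.22% ± 0.20 in spinal cord, SD, n = 3 each) and were left out. Row names matched RefSeq symbols of Leri_hhj_1 for 21518 rows.

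The counts were tested in R 4.3.3 with edgeR 4.0.16 (filterByExpr, TMM and the quasi-likelihood F test, with no term beside tissue; Benjamini-Hochberg over 16112 genes, threshold 0.05). The SE is the log2 fold change divided by the square root of F. The log2 CPM used a prior count of 2. Bounds set a tissue with at most 3 counts in each library to 3 counts. The script was tested on simulated counts. Alternatives used DESeq2 1.42.0, limma 3.58.1, other scalings and filters, the replicate block and leaving out each library. Figures were drawn with matplotlib 3.10.9.

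List symbols were matched ignoring case, adding the paralog suffix a or b if needed. In each list at most the 3 largest changes past the threshold in each direction were named, and all genes of a count of 5 or fewer. Further genes were named where they made up most of a sum, where their call depended on the setting, and for the 6 glial genes lower in DRG. Members, lists and rules were chosen with earlier results of these data known. The labels give pool numbers as batches, which pairs DRG with spinal cord; deviations from the tissue mean correlated by 0.48, -0.24 and -0.18 in pools 815, 816 and 818 across 16112 genes.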

Additional observations from a re-analysis of the deposited data

How the results depend on the processing

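The directions of sncga, sncb and sncaip were the same under all 15 alternatives, and the calls of sncga (adjusted p at most 0.000418) and sncb (at most 0.000113) too. The adjusted p of sncaip ran from 0.000572 to 0.0686; across the fits that left out 1 library, its log2 fold change was -0.87 to -0.54. With the replicate block the values were 2.35, -4.96 and -0.75 (adjusted p = 0.000241, 7.48e-05 and 0.0327), and 8425 genes passed in place of 9002, 8243 of them shared. The number of genes that passed was 7416 to 10882 over the alternatives. With library sizes alone 15.5% of calls were higher in DRG, and with mitochondrial genes left out of them 28.0%, in place of 49.7%. The difference of sncga from the pan-neuronal list was 2.38 to 2.78 over 9 alternatives, 2.46 within pools (replicate block, exact sign-flip p = 0.25, the smallest possible).

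Counts of called genes moved by more than 1.5 times in the 6 lists given here; the cause was not tested. For catecholamine genes the count was 1, against 2 with library sizes alone, without mitochondrial genes, with the DESeq2 test, voom, no filter or the replicate block, and 0 when 10 counts were required in every library. For leukocyte genes it was 2, against 1 with DESeq2 size factors, without mitochondrial genes, with the DESeq2 test, voom, no filter or the 10-count filter, and 0 with the replicate block. For muscle genes it was 1, against 0 with library sizes alone or without mitochondrial genes and 2 with no filter. For endothelial genes it was 3, against 7 and 5 under those 2 scalings. For motor neuron genes it was 7, against 3 with the 10-count filter, which tests fewer genes. Leaving out 1 library gave 1 to 3 catecholamine, 0 to 2 leukocyte, 0 to 1 muscle and 6 to 13 parkinsonism genes. The block changed the calls of bag5, prkn, pou4f2, ptprc, spi1b, tie1, elavl3, slc6a2 and ldb3a, and of no other gene named here.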
